A study of Homo sapiens with 6 samples.

Results

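The 41 genes described here are proteasome genes, measured on arrays in WI-38 fibroblasts that were either growing or senescent after RASv12. A gene was a member if a probe set was annotated to it alone and its symbol began with PSMA, PSMB, PSMC, PSMD, PSME, PSMF or PSMG. The rule found 65 probe sets for 41 of the 11963 named genes on the array, and the brightest probe set over all 6 arrays stood for each gene. By role, 13 members encode the 20S core particle, 3 the catalytic subunits of the immunoproteasome, 14 the 19S regulatory cap, 3 other activators, 5 assembly chaperones and 1 the inhibitor PI31. The remaining 2, PSMC3IP and PSME3IP1, entered through their symbols and encode no subunit: PSMC3IP acts in meiotic recombination, and the PSME3IP1 protein binds the activator PSME3. PSMA6, PSME2, PSMC5, PSMD7, PSMD13, PSMG3 and PSMG4 were not analysed here.

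The 3 control samples were wild-type WI-38 cells in growth, and the 3 RASv12 samples were senescent WI-38 cells that overexpressed RASv12. WI-38 is a normal diploid fibroblast strain from human fetal lung, and RASv12 is a RAS protein locked in its active state, which drives normal cells into a lasting arrest. Retroviruses carried genes into the cells, and culture was at 3% oxygen throughout. The labels name neither the RAS gene, the promoter that drove it, nor an empty vector in the controls. If the controls were not infected, infection and RASv12 cannot be told apart. The labels give the control samples Cy5 and the RASv12 samples Cy3, so that, if dyes were used, dye and group cannot be told apart. A single fibroblast strain was studied. Nothing says whether replicates are separate cultures; a p-value here therefore speaks only of the spread among these arrays, and that spread may be technical.

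The proteasome is the protease that destroys proteins tagged with ubiquitin. Its 20S core is a barrel of stacked rings: outer rings of alpha subunits gate the entry, and inner rings of beta subunits hold the catalytic sites of PSMB5, PSMB6 and PSMB7. Interferon induces PSMB8, PSMB9 and PSMB10, which take the places of PSMB5, PSMB6 and PSMB7 in newly built immunoproteasomes and favour peptides for display on MHC class I. The 19S cap binds ubiquitin chains, removes them, and unfolds the substrate with a ring of ATPases. PSME1 with PSME2, PSME3 and PSME4 form other caps that open the core without ATP, and chaperones build rings and base. The transcription factor NFE2L1 is known for raising proteasome genes together when proteolysis falls short, through antioxidant response elements in their promoters.

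Each sample was read on 1 array of 22283 probe sets as a linear intensity, and between 48.6% and 54.1% of probe sets lay above the brightest of 27 low bacterial control probe sets, at 27.98. Correlations between arrays were 0.975 to 0.987 within groups and 0.912 to 0.928 between them. HRAS, whose probe set rose from 215 ± 23.0 (SD, n = 3) to 853 ± 123 (SD, n = 3), and the arrest gene CDKN1A, from 860.4 ± 71.2 (SD, n = 3) to 1714 ± 93.3 (SD, n = 3), went with the labels (limma, adjusted p = 1.4e-04 and 7.9e-04). All 9 fibroblast markers lay above the low controls on all 6 arrays, at a summed intensity of 22910.1 to 24655 in control and 12801 to 15120.1 in RASv12 samples, with 6 of the 9 lower in RASv12 cells. Of 6 leukocyte markers measured, only CD53 lay above the low controls, on all 6 arrays at 32.8 to 83.9. The defining PTPRC did not, at 0.939 to 14.0. The sum of the 6 markers was 44.6 to 114 in control and 54.9 to 108 in RASv12 samples. The epithelial sum was 131 to 136 and 135 to 161, from KRT18 and KRT8, with EPCAM and CDH1 not above the low controls. KRT18, above them on all 6 arrays, was called higher by 0.37 on the log2 scale (limma, adjusted p = 0.04985). KRT8, above them on 2 arrays, was called lower, at least 1.08-fold (limma, adjusted p = 0.04515). With the replicate block neither was called. The endothelial sum was 20.7 to 29.9 and 23.1 to 60.2, with PECAM1 above on 1 array and VWF and CDH5 on none. The part of other cell types in the results on members was not tested. All 41 members lay above the low controls on every array. PSMB9 came nearest to them, at 35.0 on RASv12 replicate 2.

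Proteasome genes changed in both directions, and on the brightest probe sets by less than 2-fold. Of the 41 members, 12 were higher in RASv12 cells, 5 were lower and the other 24 missed the threshold. The rises were PSMA3, PSMA5, PSMB7, PSMC4, PSMD3, PSMD8, PSMD12, PSMD14, PSME3, PSME4, PSMG1 and PSMD9. The falls were PSMB10, PSMC3, PSMD1, PSMG2 and PSME3IP1. A call is an adjusted p under 0.05 from limma on log2(intensity + 16) with Benjamini-Hochberg adjustment over all 11963 genes, and each log2 change is RASv12 minus control with its standard error on that scale, which understates the change of dim genes. In bulk samples, fewer cells of a type and less RNA per cell cannot be told apart.

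Rises made up 29.3% of the members, against 13.9% of all genes tested, and falls 12.2%, against 15.5%. In either direction 29.4% of all genes were called. Control and RASv12 arrays were fully apart for 26 of the 41 members, and for 41.6% of all genes. None of the 17 called members reached 2-fold on its brightest probe set in this fit, while 8.53% of all genes were called with at least that size. Dimmer probe sets of the called PSME3 and PSME4 did, and so did that of PSMC2, which had no call on its brightest. The dimmer probe sets of PSMD11 and PSMC3IP allow only bounds, at least 1.63-fold and 1.28-fold lower. The median log2 change of the members was 0.14, with 28 above and 13 below 0, and that of all genes was 0.020. Without PSMC3IP and PSME3IP1, 12 of 39 rose, 4 fell and the median was 0.21.

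These counts depend on the scale of the arrays. The 18 hybridization control probe sets, which read bacterial transcripts added at hybridization, were all dimmer on RASv12 arrays, by 0.34 on average on the log2 scale. With the arrays scaled to them, the median of all genes moved to 0.20 and 2821 genes rose and 1041 fell. Under that scaling limma called 27 members higher and none lower, and 14 missed the threshold; at an unadjusted p under 0.05 the counts were 31 and 1. All 12 rises above were among the 27, with PSMD12 at 1.26, PSMC4 at 1.03 and also PSME3 then over 2-fold, and none of the 5 falls was called. A fall is here a fall relative to the other genes of the array.

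**Figure D1:**
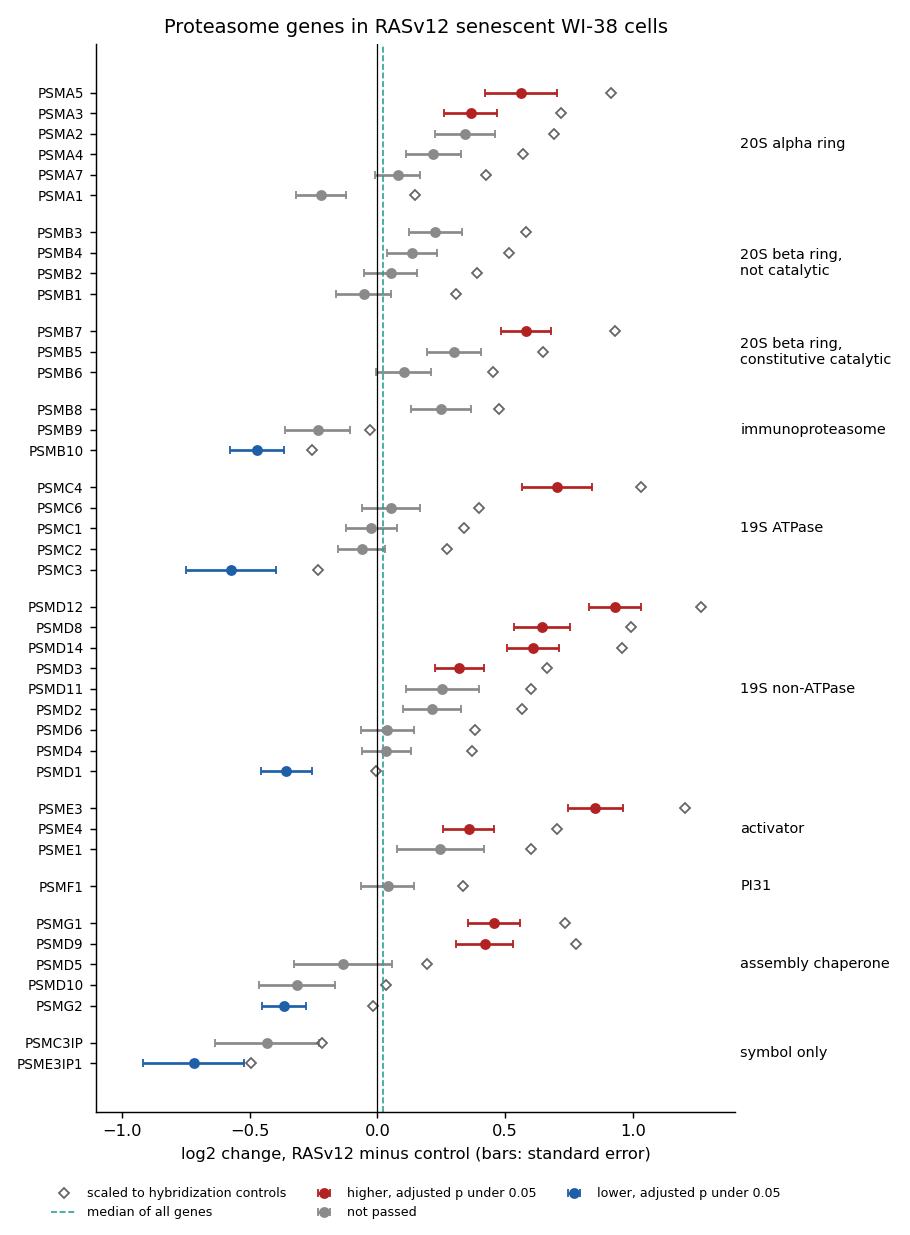
Log2 change in intensity, RASv12 minus control (x axis, log2 units), for each of the 41 members by role; filled circles are the quantile-normalized fit with standard errors (n = 3 and 3) and open diamonds the same change with arrays scaled to the hybridization controls. PSMD12 at 0.93 and PSME3 at 0.85 lie farthest right, and every diamond lies to the right of its circle.

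In the 20S core limma called 3 of 13 members higher and none lower (5 and 0 at an unadjusted p under 0.05), with a median log2 change of 0.22. Rises were 23.1% of the core, against 13.9% of all genes, and no core gene fell, against 15.5% of all genes. Called in either direction were 23.1% of the core and 29.4% of all genes. The alpha ring, which gates the barrel, held PSMA5 and PSMA3 among its 6 measured members. PSMA5 read 515, 454 and 529 in controls and 665, 747 and 864 in RASv12 cells, in the order of the replicates, as throughout. All 3 RASv12 arrays were above all 3 controls, and PSMA5 rose by 0.56 ± 0.14 on the log2 scale (limma, adjusted p = 0.0230). PSMA3 stood at 644, 606 and 644 in controls and 829.6, 932 and 739 in RASv12 cells, again with no overlap, and rose by 0.36 ± 0.11 (limma, adjusted p = 0.0386). The PSMA5 call was lost without any 1 of control replicates 1, 2 and 3 and RASv12 replicate 2 (adjusted p = 0.0529 to 0.0763), and that of PSMA3 without any 1 of control replicates 1, 2 and 3 and RASv12 replicates 1 and 2 (adjusted p = 0.0634 to 0.118).

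PSMA1, the alpha subunit with the most negative change, gave 1250.5, 1378 and 1248 in controls and 1240.2, 1102 and 1062 in RASv12 cells. Its groups stayed apart by a narrow margin, and the difference of -0.22 ± 0.097 did not pass. PSMA2 had 675, 611 and 619 against 924, 855 and 693, a difference of 0.34 ± 0.12 with an adjusted p of 0.0700 by limma. Of the 6 fits that left out 1 library, it passed in the one without RASv12 replicate 3, its lowest RASv12 array (adjusted p = 0.0305). PSMA4 and PSMA7 differed by 0.22 and 0.079 and did not pass. On the brightest probe sets all 6 alpha members had groups that did not overlap, against 41.6% of all genes, 5 of them with RASv12 above control. On the dimmer probe sets of PSMA1, PSMA2 and PSMA7 the groups overlapped. Those differed by -0.21 and -0.027 for PSMA1, 0.067 for PSMA2 and -0.038 for PSMA7, and did not pass.

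The structural beta subunits PSMB1, PSMB2, PSMB3 and PSMB4, which complete the inner rings, did not pass. PSMB3 came closest on the brightest probe sets, with 1100.1, 1048 and 1197 in controls and 1452, 1327 and 1202 in RASv12 samples, a difference of 0.23 ± 0.10 (limma, adjusted p = 0.149). PSMB4 read 949, 936 and 1057 in controls and 1139, 1146 and 1052 in RASv12 cells, so that control replicate 3 lay above RASv12 replicate 3. PSMB1 read 1445, 1252 and 1242 in controls and 1253, 1358 and 1244 in RASv12 cells, with thorough overlap and a difference of -0.053 ± 0.11, and PSMB2 differed by 0.051 ± 0.10. The second-brightest probe sets of PSMB1 and PSMB2 differed by 0.087 and 0.69, both with overlap, and did not pass.

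Among the constitutive catalytic subunits, PSMB7, which carries the trypsin-like site, was the only one of 3 to pass. It read 869.5, 933 and 892 in controls and 1491, 1265 and 1347 in RASv12 cells. The lowest RASv12 array was above the highest control, and PSMB7 rose by 0.58 ± 0.098 (limma, adjusted p = 0.00456). PSMB5, which carries the chymotrypsin-like site and is the target of the drug bortezomib, had 1156, 1194 and 1300.0 in controls and 1730.0, 1405 and 1429 in RASv12 samples. Its groups did not overlap, but the difference of 0.30 ± 0.11 had an adjusted p of 0.0768 by limma. PSMB6, the caspase-like subunit, gave 622, 722 and 728 against 841, 722 and 698; these groups overlapped and the difference was 0.10 ± 0.11 (adjusted p = 0.539).

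The 3 immunoproteasome subunits did not move together. Limma called none higher and 1 lower (0 and 1 at an unadjusted p under 0.05), against 13.9% and 15.5% of all genes. A count over 3 members says little beside these shares. PSMB10, which replaces PSMB7, read 89.5, 94.4 and 109 in controls and 56.5, 63.9 and 66.0 in RASv12 cells. Every RASv12 array was below every control, and PSMB10 fell by 0.47 ± 0.10 on the log2 scale (limma, adjusted p = 0.0147). With the arrays scaled to the hybridization controls its difference was -0.26 and did not pass (adjusted p = 0.16).

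PSMB9, which replaces PSMB6, read 54.5, 46.4 and 59.4 in controls and 44.5, 35.0 and 43.8 in RASv12 cells. Here the groups were apart by a narrow margin, and the difference of -0.23 ± 0.13 did not pass (limma, adjusted p = 0.220). PSMB8, which replaces PSMB5, read 78.2, 89.6 and 81.9 in controls and 110.5, 93.8 and 88.2 in RASv12 cells, so that the lowest RASv12 array lay within the controls. Its difference of 0.25 ± 0.12 did not pass (adjusted p = 0.166), and with hybridization control scaling it was called higher at 0.48 (adjusted p = 0.015). The median log2 change of the 3 was -0.23.

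A ratio taken within each array cancels most of the scaling of that array. On the normalized log2 scale the ratio of PSMB10 to PSMB7 was -3.13, -3.14 and -2.86 in control and -4.24, -3.93 and -4.12 in RASv12 samples. It was lower in all 3 RASv12 samples, by a shift of -1.05 ± 0.13, which stayed between -1.18 and -0.87 under every alternative, hybridization control scaling included. For PSMB9 to PSMB6 the shift was -0.34 ± 0.12, with control ratios of -3.23, -3.60 and -3.33 and RASv12 ratios of -3.67, -3.82 and -3.69. Again no RASv12 array lay within the controls. The ratio of PSMB8 to PSMB5 shifted by -0.051 ± 0.081, less than the spread, from -3.69, -3.59 and -3.76 to -3.69, -3.64 and -3.86. Exact two-sided permutation tests gave p = 0.1 for each of the first 2 shifts and 0.6 for PSMB8 to PSMB5 (adjusted over the 3 pairs, 0.15, 0.15 and 0.6). With 3 arrays against 3 no p below 0.1 was possible. A shift shows that the pair changed unequally, and the level of 1 probe set cannot be set against another's.

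**Figure D2:**
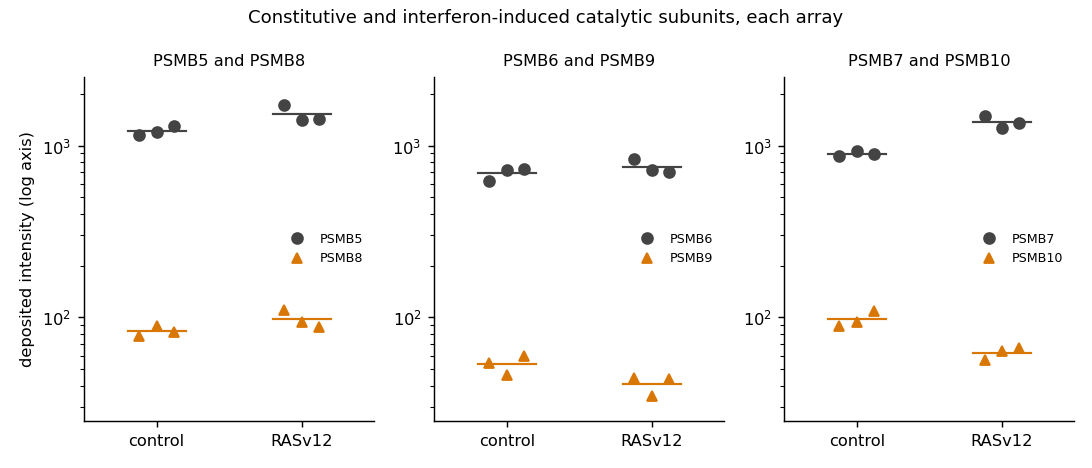
Deposited intensity (y axis, log scale) of each constitutive catalytic subunit and of the interferon-induced subunit that replaces it, on each of the 3 control and 3 RASv12 arrays; lines are group means. The mean of PSMB7 goes from 898 to 1368 and that of PSMB10 from 97.5 to 62.1, while the PSMB6 and PSMB8 arrays of the groups overlap.

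Interferon acts on these genes through interferon-stimulated response elements, so the promoters of the immunoproteasome genes were read for such letters. RefSeq promoters of assembly GRCh38.p14, from 250 bases before to 50 after each start, were at hand for 36 of the 41 members, in 45 windows. The pattern searched, on either strand, was GAAA, 2 bases of any kind and GAAA. It was present in 3.57% of 35116 windows of this length. Among the members it was found for 5, in 11.1% of member windows: PSMB10, which fell, and PSMA4, PSMB4, PSMB8 and PSME1, which did not pass. Falls were 12.2% of all members and 15.5% of all genes. Shown are 100 bases of PSMB8 (chr6:32844028-32844127, minus strand) and PSMB10 (chr16:67936831-67936930, minus strand), from base -80, since these 2 immunoproteasome genes carry it beside a start, and of TAP1 (chr6:32853785-32853884, minus strand), from base -180, all counted from the start. Each is written 5′ to 3′ with the matched letters, or their reverse complement, in capitals.
PSMB8: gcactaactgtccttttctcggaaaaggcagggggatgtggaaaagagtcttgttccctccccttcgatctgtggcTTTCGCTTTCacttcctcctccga
PSMB10: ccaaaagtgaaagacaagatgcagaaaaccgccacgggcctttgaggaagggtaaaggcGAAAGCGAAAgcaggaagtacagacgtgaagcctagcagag
TAP1: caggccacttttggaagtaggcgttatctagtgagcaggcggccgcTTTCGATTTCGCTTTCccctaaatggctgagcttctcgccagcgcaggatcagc
PSMB9 and the peptide transporter TAP1 start 488 bases apart on opposite strands, at the TAP1 start whose window is shown. The 2 matches of the TAP1 window overlap each other, the nearer one lies 354 bases from the PSMB9 start, and the PSMB9 window holds none. A match is a description of letters and does not show a bound site.

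The shorter pattern GAAANNGAA, which every match of the longer one also contains, was present for 6 members and in 13.3% of member windows against 8.11% of all. TTCNNNGAA, the gamma-activated site, was found for 7 members and in 15.6% against 7.66%. Of these members PSMC4, PSMD3 and PSME3 rose and PSMA2, PSMB5, PSMB8 and PSMD2 did not pass. Rises were 29.3% of all members and 13.9% of all genes. An NF-kB-type pattern, GGG, 5 bases of any kind and CC, was present for 25 members, in 62.2% of member windows against 58.7% of all.

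Other interferon-induced genes were called higher in the same samples. Of a list of 11 interferon-induced partners of the proteasome, 8 were measured. Limma called 5 higher and none lower (6 and 1 at an unadjusted p under 0.05), and the median log2 change of the list was 0.43. The 5 are 62.5% of the list, against 13.9% of all genes called higher, but they became 3 when any 1 of control replicates 2 and 3 and RASv12 replicates 2 and 3 was left out, and 2 with the replicate block. Of all genes, 9.87% to 11.6% were called higher in those leave-out fits and 10.2% with the block. ISG15, a ubiquitin-like modifier, went from 369.6, 409 and 417 in controls to 3121, 2333 and 2269.9 in RASv12 samples. The groups were far apart, and ISG15 rose by 2.60 ± 0.14 (limma, adjusted p = 2.2e-05). HERC5, the ligase that attaches ISG15, lay at 24.3, 19.7 and 7.20 in controls, within the low controls, and at 59.6, 74.0 and 88.9 in RASv12 cells, at least 2.62-fold higher (limma, adjusted p = 0.00205). The bound sets the mean log2 intensity of the RASv12 arrays against the highest low control.

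TAP1, which carries peptides made by the proteasome into the endoplasmic reticulum, read 89.4, 52.1 and 71.9 in controls and 109, 151 and 132 in RASv12 cells and rose by 0.81 ± 0.18 (limma, adjusted p = 0.0155). Its call was lost without RASv12 replicate 2 (adjusted p = 0.0556). Its partner TAP2 rose by 0.40 ± 0.11, and the interferon regulator IRF1 by 0.45 ± 0.12 (limma, adjusted p = 0.0301 and 0.0302). Both calls depended on single libraries: TAP2 was lost without any 1 of control replicates 1, 2 and 3 and RASv12 replicates 1 and 3 (adjusted p = 0.05005 to 0.0914), and IRF1 without any 1 of control replicates 2 and 3 and RASv12 replicates 2 and 3 (adjusted p = 0.0807 to 0.0984). The normalized log2 ratio of TAP1 to its neighbour PSMB9 was 0.58, 0.12 and 0.22 in control and 0.98, 1.71 and 1.36 in RASv12 samples, a shift of 1.05 ± 0.25. This pair was chosen after its values were seen and was not tested.

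**Figure D3:**
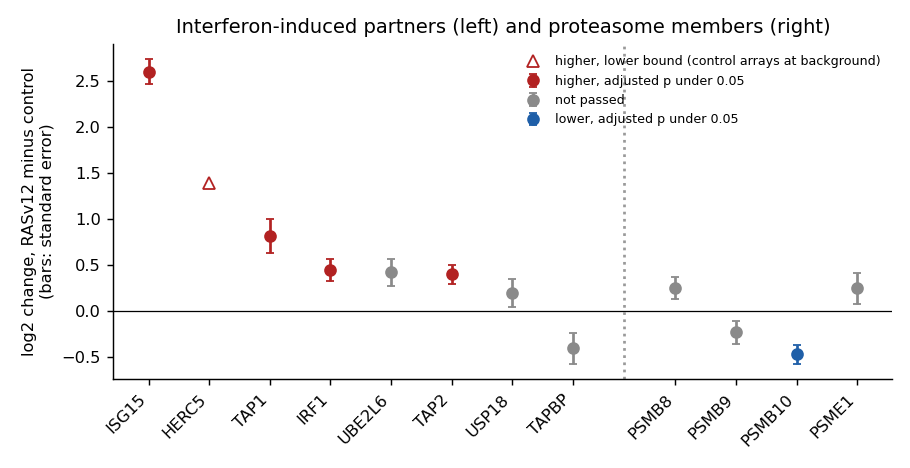
Log2 change, RASv12 minus control (y axis, log2 units, bars standard errors, n = 3 and 3), of 8 interferon-induced partners on the left and of PSMB8, PSMB9, PSMB10 and PSME1 on the right; the open triangle of HERC5 is a bound. The partners run from ISG15 at 2.60 to TAPBP at -0.41, and of the 4 proteasome genes only PSMB10 passed, with a fall.

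In the 19S cap, the group with the most members, 5 of 14 rose and 2 fell, with a median log2 change of 0.13. Rises were 35.7% of its members against 13.9% of all genes, and falls 14.3% against 15.5%. In its ATPase ring, PSMC4 and PSMC3 moved in opposite directions while PSMC1, PSMC2 and PSMC6 did not pass. PSMC4 read 166, 218 and 192 in controls and 291, 371 and 313 in RASv12 samples, with no overlap, and rose by 0.70 ± 0.14 (limma, adjusted p = 0.00840). PSMC3 read 355, 429.6 and 559.6 in controls and 336, 303 and 249.8 in RASv12 cells. The controls were widely spread, their lowest array stood close above the highest RASv12 array, and PSMC3 fell by 0.57 ± 0.18 (limma, adjusted p = 0.0487). That call was lost without any 1 of control replicates 2 and 3 and RASv12 replicates 1, 2 and 3 (adjusted p = 0.0551 to 0.128). PSMC6 read 286, 276 and 261 in controls and 294, 329 and 252 in RASv12 cells, PSMC2 826, 749.5 and 788 in controls and 794, 768 and 703 in RASv12 cells, and both overlapped. PSMC1 differed by -0.024 ± 0.099.

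PSMD12, a scaffold subunit of the lid of the cap, had the largest change of all members on its brightest probe set. It read 249, 212 and 241 in controls and 479.8, 467 and 444 in RASv12 samples. The 2 groups were tight and far apart, and PSMD12 rose by 0.93 ± 0.10, or 1.91-fold (limma, adjusted p = 6.6e-04). Its second probe set read 142, 163 and 130.4 in controls and 137, 146 and 146 in RASv12 cells and differed by 0.0031, so that the rise rests on 1 of its 2 probe sets.

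PSMD14, the deubiquitinase that cuts ubiquitin chains off the substrate, read 736, 830.4 and 779 in controls and 1188, 1189 and 1264 in RASv12 cells and rose by 0.61 ± 0.10 (limma, adjusted p = 0.00452). PSMD8, another lid subunit, read 750.3, 745 and 846 in controls and 1327, 1131 and 1269 in RASv12 cells; all RASv12 arrays were again above all controls, and the rise was 0.64 ± 0.11 (limma, adjusted p = 0.00446). The calls of PSMC4, PSMD8, PSMD12 and PSMD14, like those of PSMB7 and PSME3, held under all 16 alternatives. PSMC4, PSMD8, PSMD14 and PSMB7 have 1 probe set each, so the alternatives that change the probe set read the same values for them. For PSMD12 only the mean of all probe sets brought in its second probe set.

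PSMD3, also of the lid, read 230.3, 228 and 250.01 in controls and 303, 295 and 312 in RASv12 cells. These groups were apart, the rise was 0.32 ± 0.095 (limma, adjusted p = 0.0429), and the call was lost without any 1 of control replicates 1, 2 and 3 and RASv12 replicates 1, 2 and 3 (adjusted p = 0.0591 to 0.126). The lid subunits PSMD11 and PSMD6 differed by 0.25 and 0.038 and did not pass. SEM1, a small lid subunit outside the symbol rule, read 650.2, 589 and 518 in controls and 612, 493 and 406 in RASv12 cells, with overlap, and differed by -0.25 ± 0.16 without passing (limma, adjusted p = 0.293).

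PSMD1, a large scaffold of the base that holds ubiquitin receptors, read 809, 866 and 844 in controls and 750.4, 625 and 613 in RASv12 samples. All RASv12 arrays were lower, and PSMD1 fell by 0.36 ± 0.10 (limma, adjusted p = 0.0344). This call was lost without any 1 of control replicates 1, 2 and 3 and RASv12 replicates 2 and 3 (adjusted p = 0.0699 to 0.106), and with hybridization control scaling the difference was -0.0070. The base scaffold PSMD2 and the ubiquitin receptor PSMD4 differed by 0.21 ± 0.11 and 0.035 ± 0.095 and did not pass.

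NFE2L1 and its relative NFE2L2 bind antioxidant response elements, and the letters TGACNNNGC, a core of that element, were searched on both strands. They were present for 13 members, in 28.9% of member windows against 13.3% of all windows. Of the 13, PSMC4, PSMD12, PSMD3, PSMD9, PSME4 and PSMG1 rose, PSMD1 and PSMG2 fell, and PSMA4, PSMB3, PSMB9, PSMD5 and PSME1 did not pass. Rises were 29.3% of all members and 13.9% of all genes, and falls 12.2% and 15.5%. Of the rises with the letters, only those of PSMC4 and PSMD12 held under every alternative. Whether members with any of the patterns searched changed more than others was not tested. Shown are 100 bases each of PSMD12 (chr17:67366688-67366787, minus strand, from base -210), the member with the largest rise, PSMD3 (chr17:39980727-39980826, plus strand, from base -80), which also rose, and PSMB3 (chr17:38752591-38752690, plus strand, from base -150), which has the letters and did not pass. The match is in capitals.
PSMD12: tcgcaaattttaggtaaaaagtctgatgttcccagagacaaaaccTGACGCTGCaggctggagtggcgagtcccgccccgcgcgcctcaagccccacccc
PSMD3: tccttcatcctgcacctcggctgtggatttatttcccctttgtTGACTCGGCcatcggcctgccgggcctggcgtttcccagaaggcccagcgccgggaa
PSMB3: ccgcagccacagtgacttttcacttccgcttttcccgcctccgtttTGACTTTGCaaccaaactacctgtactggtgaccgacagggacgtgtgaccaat
The CCAAT box, CCAAT on either strand, was found for 19 members, in 46.7% of member windows against 34.6% of all. Matches of different patterns can overlap and were counted separately.

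Of the activators that cap the core in place of the 19S, limma called 2 of 3 higher and none lower (2 and 0 at an unadjusted p under 0.05), against 13.9% of all genes called higher, with a median log2 change of 0.36. PSME3, the nuclear activator known for degradation without ubiquitin, including that of CDKN1A, read 323, 342 and 274 in controls and 609, 579 and 569 in RASv12 samples. The RASv12 arrays lay well above the controls, and PSME3 rose by 0.85 ± 0.11, or 1.81-fold (limma, adjusted p = 0.00128). All 4 of its probe sets rose, by 0.41 to 1.16 on the log2 scale. CDKN1A RNA was higher in the same samples, by 0.97 ± 0.11, and its protein was not measured here.

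PSME4, which caps the core in the nucleus and acts on histones, read 326, 281 and 291 in controls and 391, 393 and 399 in RASv12 cells. The RASv12 arrays were tightly grouped above the controls, and PSME4 rose by 0.36 ± 0.10 (limma, adjusted p = 0.0360). Its call was lost without any 1 of control replicates 2 and 3 and RASv12 replicates 1, 2 and 3 (adjusted p = 0.0591 to 0.111). PSME1, which interferon induces and which pairs with PSME2, read 512, 419 and 406 in controls and 444, 563 and 625 in RASv12 cells. Control replicate 1 lay above RASv12 replicate 1, and the difference of 0.25 ± 0.17 did not pass (limma, adjusted p = 0.338). PSMF1, which encodes the inhibitor PI31, read 179, 148 and 155 in controls and 161, 161 and 168 in RASv12 cells. On this brightest probe set the RASv12 values lay inside the control range, with a difference of 0.040 ± 0.10. The dimmer PSMF1 probe set read 92.0, 73.2 and 63.0 in controls and 47.8, 51.7 and 43.2 in RASv12 cells. There the groups did not overlap, and the difference of -0.47 ± 0.15 did not pass.

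The assembly chaperones split, with 2 rises and 1 fall among 5, against 13.9% and 15.5% of all genes, and a median of -0.13. PSMG1 and PSMG2 encode proteins that pair with each other to build the alpha ring, and they moved in opposite directions. PSMG1 read 125, 110.5 and 118 in controls and 152, 173 and 168 in RASv12 cells and rose by 0.46 ± 0.10 (limma, adjusted p = 0.0141). PSMG2 read 559, 539 and 548 in controls and 446, 429 and 411 in RASv12 cells and fell by 0.37 ± 0.086 (limma, adjusted p = 0.0183). Neither gene's groups overlapped. The PSMG1 call was lost without any 1 of control replicate 2 and RASv12 replicate 2 (adjusted p = 0.0519 to 0.0536), and that of PSMG2 without any 1 of control replicates 1 and 3 and RASv12 replicate 2 (adjusted p = 0.0536 to 0.0592); with hybridization control scaling PSMG2 differed by -0.017.

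The other chaperones help to build the base of the cap. PSMD9 read 496, 488 and 508 in controls and 805, 659 and 602 in RASv12 cells and rose by 0.42 ± 0.11 (limma, adjusted p = 0.0290), a call lost without any 1 of control replicates 1, 2 and 3 and RASv12 replicates 1 and 2 (adjusted p = 0.0603 to 0.0837). PSMD10, also called gankyrin, read 348, 392 and 353 in controls and 237, 328 and 328 in RASv12 cells; it was lower on all 3 RASv12 arrays, but the difference of -0.31 ± 0.15 did not pass. PSMD5 differed by -0.13 ± 0.19, with overlap. Of the members by symbol alone, PSME3IP1 read 68.9, 95.3 and 101 in controls and 58.2, 37.9 and 40.7 in RASv12 cells and fell by 0.72 ± 0.20 (limma, adjusted p = 0.0332), a call lost without any 1 of control replicates 2 and 3 and RASv12 replicates 2 and 3 (adjusted p = 0.0928 to 0.111). PSMC3IP read 118, 63.9 and 69.9 in controls and 54.3, 51.9 and 53.5 in RASv12 cells, its control replicate 1 well above the other 5 arrays, and did not pass.

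Array by array, the core, the cap and the activators each had all 3 RASv12 medians above all 3 control medians. Each member was taken as its normalized log2 difference from its own control mean. The median over the 13 core genes was -0.021, -0.048 and 0.022 in controls and 0.22, 0.18 and 0.13 in RASv12 samples, and over the 14 cap genes it was 0.017, -0.050 and 0.0022 against 0.18, 0.15 and 0.19. The 3 activators gave 0.13, -0.088 and -0.12 against 0.31, 0.35 and 0.50. For the immunoproteasome the values were -0.079, -0.046 and 0.12 against -0.059, -0.39 and -0.25, with RASv12 replicate 1 inside the controls. The chaperones overlapped, at 0.0095, -0.033 and 0.011 against 0.28, -0.17 and -0.15. The medians over all genes lay between -0.015 and 0.026. Differences between these groups of genes were not tested.

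**Figure D4:**
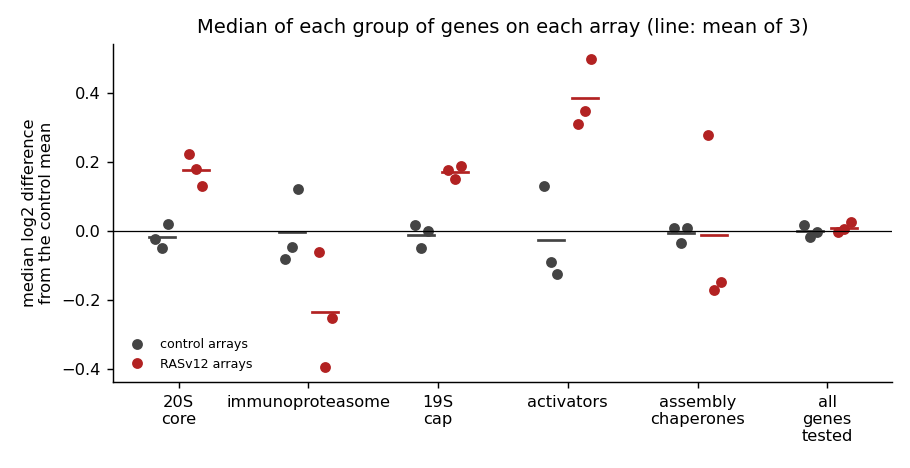
Median log2 difference from the control mean (y axis, log2 units) over the genes of each group on each array; points are arrays and lines the mean of 3. The RASv12 arrays lie above the controls for the core (0.13 to 0.22), the cap (0.15 to 0.19) and the activators (0.31 to 0.50) and overlap them for the immunoproteasome and chaperones.

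Probe sets of 1 gene did not always move together. Of the 17 members read by more than 1 probe set, 1 had all its probe sets called, 7 had some called and 9 had none, and no member had calls in both directions. Adjusted over all 22215 probe sets, of which 24.3% were called, 16 of the 65 member probe sets rose and 7 fell. PSME4 had 3: besides the one given above, a dimmer one went from 27.7, 54.5 and 37.8 to 92.0, 111 and 91.8, a rise of 1.11 ± 0.19 (limma, adjusted p = 0.00645), and another differed by -0.27 and did not pass. In PSMC2, whose brightest probe set did not pass, the second read 102, 149 and 128 in controls and 67.0, 48.1 and 41.4 in RASv12 samples and fell by 1.04 ± 0.21 (limma, adjusted p = 0.0124).

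The second PSMD11 probe set read 42.4, 47.7 and 47.3 in controls and 9.02, 4.57 and 1.79 in RASv12 cells. All 3 RASv12 arrays lay within the low controls, so this transcript region was at least 1.63-fold lower (limma, adjusted p = 0.0010), while the brightest PSMD11 probe set differed by 0.25. The second PSMC3IP probe set was likewise dim on all 3 RASv12 arrays, at least 1.28-fold lower (limma, adjusted p = 0.0109). The second probe sets of PSMD1 and PSMD9 differed by -0.092 and -0.0044, so that those 2 calls too rest on 1 probe set each.

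**Figure D5:**
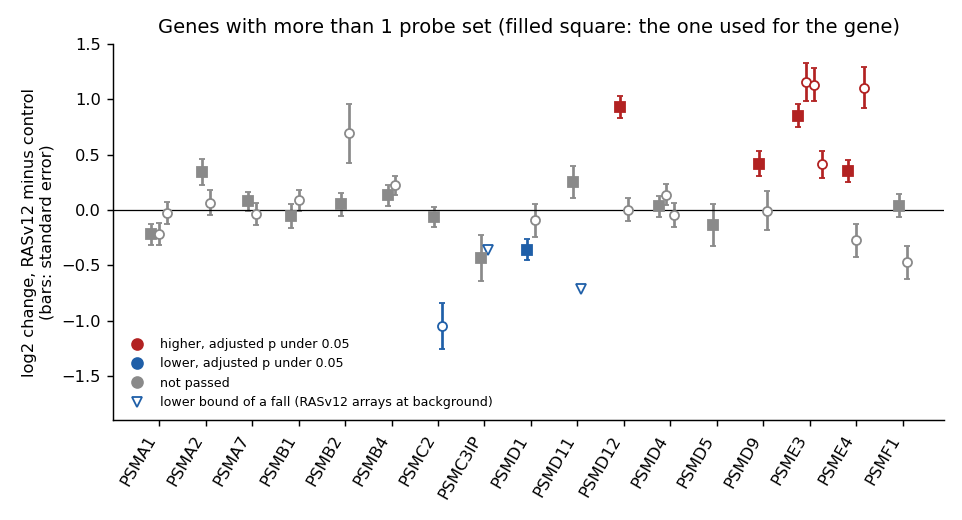
Log2 change, RASv12 minus control (y axis, log2 units, bars standard errors, n = 3 and 3), of every probe set of the 17 members with more than 1; squares are the brightest, used for the gene, triangles are bounds where the RASv12 arrays lay within the low controls, and 3 probe sets dim in both groups are not drawn. PSME3 rises on all 4, and PSMD11 has 1 probe set at 0.25 and 1 that is at least 1.63-fold lower.

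Of 11 further proteins of the proteasome with other symbols, 2 rose and 1 fell, and the median over the list was -0.092. The called share of 27.3% was near the 29.4% of all genes, and the rises became 0 without any 1 of control replicates 2 and 3 and RASv12 replicates 1 and 2. In those fits 9.87% to 13.6% of all genes were called higher. The ubiquitin receptor ADRM1 read 331, 385 and 354 in controls and 593, 471 and 437 in RASv12 cells, a rise of 0.44 ± 0.12 (limma, adjusted p = 0.0363). UCHL5, the deubiquitinase that ADRM1 recruits, rose by 0.53 ± 0.15 (limma, adjusted p = 0.0353), and the scaffold ECPAS fell by 0.42 ± 0.11 (limma, adjusted p = 0.0303). These calls were lost as follows: ADRM1 without any 1 of control replicates 1, 2 and 3 and RASv12 replicates 1 and 2 (adjusted p = 0.0586 to 0.103), UCHL5 without any 1 of control replicates 2 and 3 and RASv12 replicates 1, 2 and 3 (adjusted p = 0.05002 to 0.111), and ECPAS without any 1 of control replicates 1, 2 and 3 and RASv12 replicates 2 and 3 (adjusted p = 0.0584 to 0.0970). The chaperone PAAF1 and the ligase UBE3C differed by -0.30 and 0.26 and did not pass; PAAF1 passed only in some alternatives, among them without RASv12 replicate 1 (adjusted p = 0.0477).

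Of 13 genes for ubiquitin, its activating enzymes and shuttle receptors, 8 were measured: 2 rose and 3 fell (against 13.9% and 15.5% of all genes), and the list had a median of -0.050. The selective autophagy receptor SQSTM1 read 729, 715 and 809.5 in controls and 1123, 1039.9 and 1164 in RASv12 samples and rose by 0.53 ± 0.10 (limma, adjusted p = 0.00826). Its relative NBR1 went the other way, from 309.9, 302 and 305 to 197, 143 and 136, a fall by 0.91 ± 0.14 (limma, adjusted p = 0.00323). The activating enzyme UBA6 rose by 1.29 ± 0.24 (limma, adjusted p = 0.00669), but differed by 0.50 without a call on another of its probe sets. The shuttles RAD23B and UBQLN2 fell by 0.63 ± 0.11 and 0.33 ± 0.094 (limma, adjusted p = 0.00635 and 0.0381). UBQLN2 lost its call without any 1 of control replicates 1, 2 and 3 and RASv12 replicates 1, 2 and 3 (adjusted p = 0.0524 to 0.110), and RAD23B differed by 0.17 on another of its probe sets.

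VCP, the segregase that pulls ubiquitin-tagged proteins out of complexes, and 6 of its adaptors were all measured: 2 rose and 1 fell (28.6% and 14.3%, against 13.9% and 15.5% of all genes), with a median of -0.064. Its cofactor UFD1 rose by 0.46 ± 0.091, FAF2 rose by 0.48 ± 0.15 and FAF1 fell by 0.83 ± 0.20 (limma, adjusted p = 0.00918, 0.0474 and 0.0177). FAF2 lost its call without any 1 of control replicates 2 and 3 and RASv12 replicates 2 and 3 (adjusted p = 0.123 to 0.142), and FAF1 without any 1 of control replicates 1 and 3 and RASv12 replicates 2 and 3 (adjusted p = 0.0546 to 0.0666). NSFL1C, UBXN1, VCP and NPLOC4 did not pass, the first 2 at 0.32 and -0.16.

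Of 8 genes for NFE2L1 and its activation, 5 were measured, and 2 rose and 1 fell (against 13.9% and 15.5% of all genes), with a median of 0.40. NFE2L1 itself read 464, 499 and 463 in controls and 427, 389 and 442 in RASv12 cells, lower on all 3 RASv12 arrays, and its difference of -0.19 ± 0.10 did not pass (limma, adjusted p = 0.206). NGLY1, the glycanase that NFE2L1 needs to become active, rose by 0.72 ± 0.12 (limma, adjusted p = 0.00382), but differed by 0.11 on its brightest probe set without an x or s suffix, a mark of probes shared between transcripts (adjusted p = 0.818). NFE2L2 fell by 0.76 ± 0.12, from 559, 542 and 576 to 301, 309 and 374 (limma, adjusted p = 0.00343). The small partner MAFF rose from 172, 149 and 144 to 669, 742 and 723, by 2.09 ± 0.11 (limma, adjusted p = 2.6e-05). MAFG differed by 0.40 ± 0.19 and passed only without RASv12 replicate 2 (adjusted p = 0.0352). Scaled to the hybridization controls, limma called no gene of the NFE2L1 list or of the proteasome-bound list lower (1 and 0 at an unadjusted p under 0.05), and the falls of NFE2L2, ECPAS, RAD23B and UBQLN2 lost their calls.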

How the data were processed

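RNA was amplified in 2 rounds and read on 6 arrays, 3 per group. The authors deposited 1 table of linear signal intensity per probe set, made with MAS5 per the submitters' processing notes; its version is not given in the sources used here, nor is a scaling target. Its mean after trimming 2% at each end was 100.04 on every array, so the arrays had been scaled. Of 22283 probe sets, 68 controls were left out. The probe annotation gave 1 symbol for 19065, several for 1043 and none for 2107; the last 2 kinds stayed unnamed. In 12 cases RefSeq had no match. Array medians of log2(intensity + 16) ran from 5.40 to 5.63, so quantile normalization was applied. The probe set with the highest mean stood for each of 11963 genes, and limma 3.58.1 (lmFit, eBayes; R 4.3.3) gave Benjamini-Hochberg adjusted p-values over all genes, called under 0.05. The fit was tested on simulated data. Named with values are every catalytic subunit, activator and inhibitor, the 2 largest rises and falls by moderated t of each other role, and up to 5 genes of each further list. Other members are named to account for them all. The members and lists were chosen with earlier results of these data known. No 2 arrays were identical. The number of arrays limits the precision. Alternatives were the normalization, the pseudocount, a filter on dim probe sets, the probe set per gene, each library left out, and a replicate block. Promoter letters are from RefSeq, GRCh38.p14.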

Additional observations from a re-analysis of the deposited data

How the results depend on the processing

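The 41 members over 16 alternatives gave 656 values, of which 552 kept their side of the threshold, 79 lost a call, 23 gained one and 2 reversed; among the 552, 21 values of 11 members without a call had the other sign. Of the 17 calls, 6 held under every alternative. The 12 rises became 27 with hybridization control scaling, 7 with pseudocount 1, 7 with the replicate block, and 6 to 11 with 1 library left out (6 without control replicate 2 or RASv12 replicate 2, 7 without control replicate 3). The 5 falls became 3 as deposited, 2 with median centring, 0 with hybridization control scaling, 1 with pseudocount 1, 1 with the replicate block, and 1 to 4 with 1 library left out (1 without control replicate 3 or RASv12 replicate 2, 2 without control replicate 2 or RASv12 replicate 3, 3 without control replicate 1). With the mean of all probe sets the falls became 7, and on probe sets without an x or s suffix 6. In each, 4 of the 5 were kept. At pseudocount 64 the rises and falls were 14 and 6, and with a fit over all probe sets, chosen after seeing the data, 12 and 4. Of all genes, 13.9% rose in the main fit, 23.6% with hybridization control scaling, 11.1% with pseudocount 1 and 10.2% with the replicate block. Falls among all genes were 15.5% in the main fit and as deposited, 14.3% with median centring and 8.70% with hybridization control scaling. With pseudocount 1 they were 12.8% and with the replicate block 12.5%. With 1 library left out, 9.87% to 13.6% of all genes rose and 11.8% to 14.6% fell. Same-number arrays correlated at -0.23, -0.028 and -0.070 in their deviations from group means, so no shared deviation was seen. With so few arrays this cannot exclude that the replicate numbers pair the samples, which the labels do not state. A gene that lost its call under the block kept its log2 change. The core median of 0.22 moved to 0.26 with median centring, 0.57 with hybridization control scaling, 0.14 on probe sets without an x or s suffix, and 0.18 to 0.22 with 1 library left out. The cap median of 0.13 moved to 0.18, 0.48 and 0.045 under the same 3 settings, to 0.045 with the mean of all probe sets, and to 0.091 to 0.18. The immunoproteasome median of -0.23 moved to -0.029 with hybridization control scaling and to -0.32 to -0.16, and the activator median of 0.36 to 0.70 and to 0.31 to 0.42. Leaving out 1 library, the PSMB8 to PSMB5 shift ran from -0.093 to 0.011, reversed without RASv12 replicate 3 at 0.011; PSMB9 to PSMB6 from -0.44 to -0.26; and PSMB10 to PSMB7 from -1.13 to -0.96. PSMD11 reversed to -0.63 with the mean of all probe sets and -1.52 without x or s suffixes, and RAD23B to 0.17 without such suffixes, since another probe set is read; the PSMD11 sizes are not read, because that probe set lay within the low controls on all 3 RASv12 arrays and allows only at least 1.63-fold; for the other changes the cause was not tested. Signal over background limits dim probe sets, 3 of the 65 being within the low controls in both groups.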
